A study of Mus musculus with 4 samples.

Results

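The cytosolic ribosomal protein genes, which encode the protein part of the ribosomes outside the mitochondria, were followed in mouse Th17 cells with and without PRAK. They were taken by symbol: Rpsa, the numbered Rps and Rpl genes with their a, l, l1 and x forms, and Rplp0, Rplp1 and Rplp2, without pseudogene symbols and without the S6 kinases. The rule found 84 of the 17921 genes in the table, of which 32 belong to the small subunit, 49 to the large subunit and 3 to the stalk of the large subunit. It leaves out some ribosomal protein genes that carry other names or forms, such as Fau, Rpl36al and Rack1. Of the 84, 7 are diverged or tissue-restricted copies whose symbols end in l or l1 (Rpl22l1, Rps27l, Rpl7l1, Rpl39l, Rpl3l, Rpl10l and Rpl32l). All but Rpl10l passed the filter on low counts, which left 83 to test.

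Naive CD4+ T cells from PRAK KO mice and from wild-type (WT) mice were polarised to Th17 cells in culture for 72 h, and RNA was taken from every cell in the dish. PRAK, also called MK5, is a kinase downstream of p38 and is the product of Mapkapk5. Each group held 2 libraries, 1 per mouse, named WT 1, WT 2, KO 1 and KO 2 after the numbers in the labels, and where 4 values follow each other they stand in that order. The labels give no strain, age, sex or culture batch, and do not say which part of Mapkapk5 was removed or in which cells. The title of the series places the comparison in Th17 differentiation, redox balance and glycolysis.

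A ribosome holds 1 copy of nearly every ribosomal protein, with the stalk proteins P1 and P2 as the known exception, so cells make these proteins in matched amounts. Their messages are among the most abundant in a growing cell, and T cells raise ribosome production when they are activated. Most of these messages begin with a terminal oligopyrimidine (TOP) motif, a cytosine followed by a run of C and T, through which mTORC1 and LARP1 set how much of the message is translated. A few members have paralogs that can take the place of the core protein or act outside the ribosome.

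The annotated starts were searched for that motif, since it is the sequence feature the messages are known for and the symbol rule did not use it. RefSeq promoter entries (GRCm38.p6) were found for 64 of the 84 members, and Rpl29, Rpl7 and Rpl3 were among the 20 without one. The longest run of C or T overlapping the 10 bases on either side of a start, read on the gene's own strand, had a median of 7 bases in the members and of 4 bases over all 27025 genes in the table. It reached 8 bases in 30 of 64 members (46.9%) and in 15.8% of all genes. A C within 2 bases of the start, followed by at least 4 C or T, was present in 22 of 64 members (34.4%) and in 10.6% of all genes. Such a match describes the letters at an annotated start and does not show where transcription began in these cells. Each window printed here has 20 bases before the start and 20 from it on, so that the first transcribed base is letter 21, and capitals mark the longest run. Rpl7a shows the longest run of those printed, Rps6 is the core member of lowest level, Rps27 and Rpl22 are core genes with a paralog that changed, and the last 3 are those paralogs.
Rpl7a (chr2:26910787-26910826, plus strand): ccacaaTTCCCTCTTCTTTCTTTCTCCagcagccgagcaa
Rps6 (chr4:86857348-86857387, minus strand): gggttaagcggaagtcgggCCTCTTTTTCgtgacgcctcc
Rps27 (chr3:90213629-90213668, minus strand): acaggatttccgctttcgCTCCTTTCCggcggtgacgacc
Rpl22 (chr4:152324416-152324455, plus strand): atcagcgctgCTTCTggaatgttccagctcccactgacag
Rps27l (chr9:66946066-66946105, plus strand): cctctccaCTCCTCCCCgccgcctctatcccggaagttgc
Rpl22l1 (chr3:28805488-28805527, plus strand): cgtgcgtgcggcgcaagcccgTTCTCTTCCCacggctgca
Rpl7l1 (chr17:46782637-46782676, minus strand): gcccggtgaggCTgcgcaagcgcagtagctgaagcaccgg
The run spans the start in Rpl7a, Rps6 and Rps27, lies before it in Rps27l and Rpl22, and begins just after it in Rpl22l1. Rpl7l1 has a run of only 2 bases. RefSeq lists a second start for Rps27l and for Rpl22, which hold runs of 4 bases each.

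Total expected counts lay between 19418012 and 20125124 per library, and 15155 to 15715 genes had a count above 0. Mapkapk5 was at 35.6, 38.4, 20.04 and 21.6 CPM (counts scaled to library size with TMM factors), so its direction matched the labels. All 12 CD4 T cell and Th17 markers in the table were detected in the series, with a summed level of 6274 and 6011 CPM in WT and of 5335 and 4128 CPM in KO. Of these, Ccr6 was called higher (log2 fold change 1.12, adjusted p = 0.00963) and Il23r lower (-1.77, adjusted p = 0.0390, edgeR), and in KO 2 Il17f was lowest (637 CPM) while Cd4 was highest (940 CPM). Markers of other cells were also present: 7 of 12 myeloid and dendritic markers were called higher in KO (summed 120 and 213 CPM in WT, 430 and 565 in KO), 1 of 6 B cell markers (34.3 and 91.8 against 129 and 113) and 1 of 7 tested CD8 T and NK cell markers (191 and 365 against 920 and 528). Over all genes tested, edgeR called 5.14% higher in KO and 8.23% lower. Lyz2, a myeloid lysozyme, was at 1.54 and 3.08 CPM in WT, 12.7 in KO 1 and 64.3 in KO 2. Of the erythroid markers 0 of 3 tested were called with edgeR (0 at an unadjusted p under 0.05, and 0 called with DESeq2 or limma), with summed levels of 1.11 to 7.01 CPM. In bulk RNA, fewer cells of a type and less RNA per cell cannot be told apart, and the part of other cells in the results on ribosomal proteins was not tested.

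Ribosomal protein messages were a large part of the RNA on the TPM scale, a level corrected for gene length and library size, and the 2 KO libraries lay on opposite sides of the WT libraries. The share of TPM was 21.7% and 23.0% in the WT mice, 19.9% in KO 1 and 26.3% in KO 2. The mean was 22.4% ± 0.862 in WT and 23.1% ± 4.48 in KO (SD, n = 2 each), and the difference of 0.747 percentage points was smaller than the spread between the KO libraries. KO 2 held 1.32 times the share of KO 1, while WT 2 held 1.06 times that of WT 1. Without Rpl29 the difference was 0.511 points. No test is given for a share over the members.

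**Figure D1:**
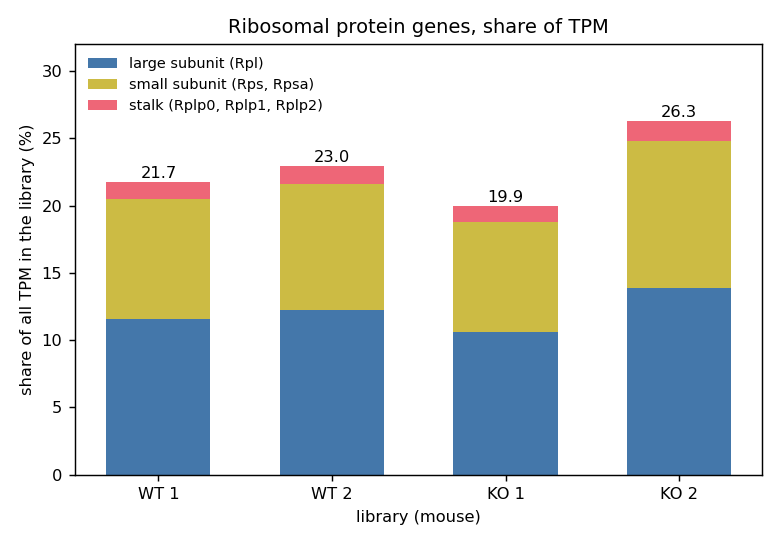
Share of all TPM (%) taken by ribosomal protein genes in each library (x axis), as stacked bars of large subunit, small subunit and stalk genes. The total stands above each bar. KO 1 is lowest and KO 2 highest in the total and in each part, with both WT libraries between them.

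The subunits kept one order of libraries. Small subunit genes, Rpsa included, held 8.91% and 9.39% of TPM in WT, 8.16% in KO 1 and 11.0% in KO 2. Large subunit genes held 11.6%, 12.2%, 10.6% and 13.9%. The 3 stalk genes held 1.29%, 1.35%, 1.18% and 1.45%. The ratio of small subunit TPM to that of large subunit and stalk genes together was 0.694, 0.691, 0.693 and 0.716. It thus varied far less than the shares themselves, which differed 1.34-fold (small) and 1.31-fold (large) between the KO mice.

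The split between the KO mice ran through nearly every core gene. Core genes are here the 76 tested members other than Rpl29 and the l and l1 copies, a set trimmed after the values were seen. KO 1 was the lowest library in 66 of the 76 and KO 2 the highest in 70, on the TPM scale, and in 60 genes both held. KO 2 was above KO 1 in 76 of 76. The trimming had taken out Rpl29, Rpl7l1 and Rpl22l1, the tested members in which KO 1 was above KO 2. The share of all genes with KO 2 above KO 1 is not given. On the CPM scale, the median log2 ratio of KO 2 to KO 1 was 0.52 over the core genes and 0.00 over all genes tested. That of WT 2 to WT 1 was 0.12 and 0.01. Against the WT mean, the median core gene stood at -0.35 (log2) in KO 1 and at 0.17 in KO 2, where the median of all genes tested was 0.01 in both. Beside this, the 2 KO libraries also differed in Il17f (1994 CPM in KO 1, 637 in KO 2) and in Lyz2, and the part of cell makeup in the split was not tested.

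**Figure D2:**
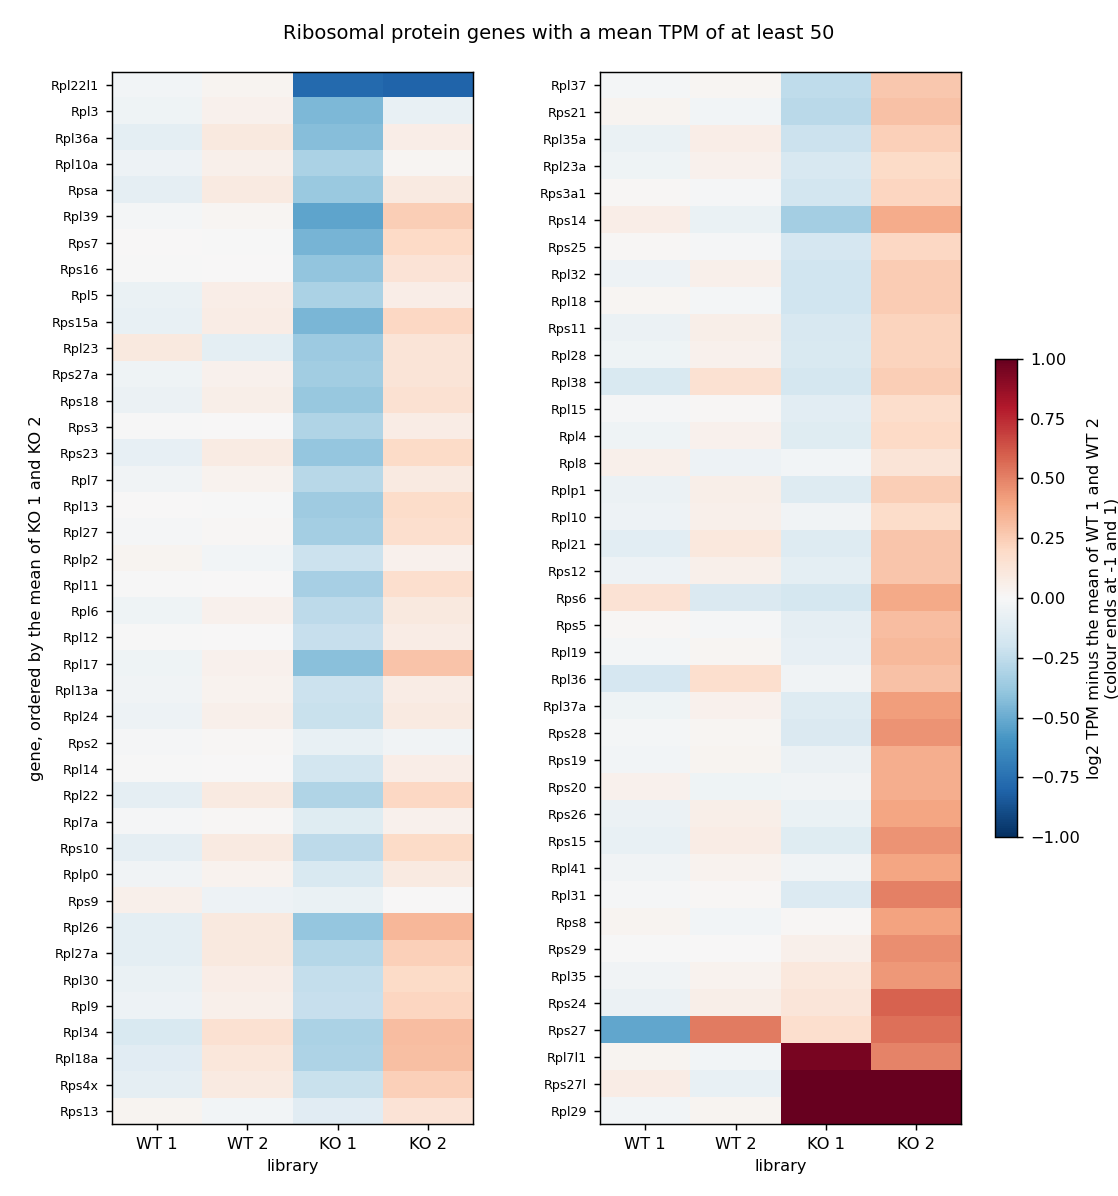
Heat map of 79 of the 80 members with a mean of at least 50 TPM, 1 row per gene and 1 column per library. Colour gives log2 TPM minus the mean of the WT libraries, and the KO 1 column is mostly blue (lower) and the KO 2 column mostly red (higher), apart from the few genes at either end of the order.

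Of 83 members tested, 3 rose in KO (Rpl29, Rps27l and Rpl7l1) and 1 fell (Rpl22l1), by edgeR's quasi-likelihood test with adjustment over all genes. Over all 12680 genes, 5.14% were called higher and 8.23% lower, or 13.4% in either direction. The groups did not overlap in CPM in 8 of 83 members, against 63% of all genes. These were the 3 that rose, Rpl22l1, and Rps2, Rpl3, Rplp2 and Rps9, which were lower and did not pass. In TPM, which carries no TMM factors, 8 members were higher in KO without overlap and 3 lower. No share over all genes is given for TPM, so no direction of the members is read from these counts. The 79 members that did not pass had log2 fold changes of -0.42 to 0.53, with standard errors of 0.152 to 0.837 (median 0.216). Their smallest adjusted p was 0.333, and 0 of them had an unadjusted p under 0.05. A value that did not pass does not show that the groups were alike.

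Over the core genes, a set that leaves out the 4 called members, the log2 fold changes lay close together. The SD of the log2 fold change was 0.12 over the 76 core genes, 0.50 over all 83 tested members and 0.92 over all genes. The interquartile range was 0.19 in the tested members and 0.62 over all genes. The median level was 2929 TPM over the core genes and 19.9 TPM over all genes tested, and genes of like level were not compared. Each fold change also averages KO 1 and KO 2, whose core medians were -0.35 and 0.17 against the WT mean. The median log2 fold change was -0.07 in the members and 0.02 over all genes, and with scaling to library size alone it was 0.03 and 0.12, so the sign of the members' median depended on the scaling. Of the 76 core genes, 57 were below 0 and 19 above. By role, 13 of 31 small subunit genes, 6 of 42 large subunit genes and 0 of 3 stalk genes lay above 0, with medians of -0.05, -0.08 and -0.12.

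The count of members called rested on which KO mouse was kept. Without KO 1, 18 of 83 members were called higher (17.3% of all genes were) and 1 lower (18.7%). Without KO 2, 51 of 83 members were called lower (24% of all genes were) and 3 higher (22.2%). In these fits the lone KO library is assumed to vary as the WT libraries do. Rps7, Rpl39, Rps15a and Rpl3 were among the 51, with log2 fold changes of -0.62, -0.68, -0.61 and -0.59, and Rps24, Rpl31 and Rps29 were among the 18, with 0.52, 0.45 and 0.41. These genes were chosen after their values were seen, and none passed with all 4 libraries. Without WT 1, 2 members were called higher (1.59% of all genes) and 1 lower (3.87%). Without WT 2, 2 were called higher (1.85%) and 0 lower (3.43%) with edgeR, and 5 members had an unadjusted p under 0.05 in that fit.

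**Figure D3:**
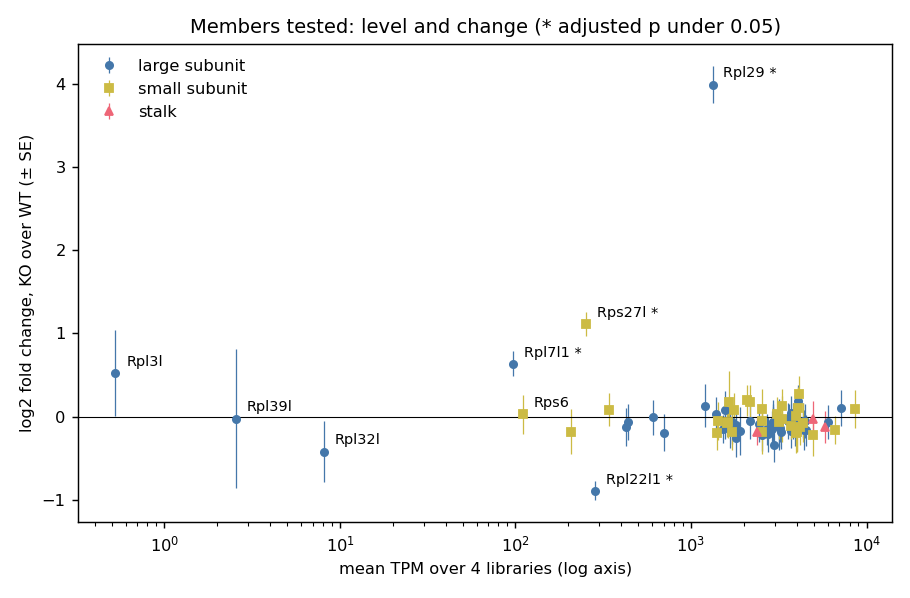
Log2 fold change of each tested member in KO over WT (± SE, y axis) against its mean TPM over the 4 libraries (x axis, log scale), with the genes that passed marked by an asterisk. Rpl29 stands at 3.99, and the core genes lie in a band between -0.34 and 0.27 at the right.

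Rpl29 encodes a small basic protein of the large subunit, also described as a heparan sulfate-interacting protein. Its gene (ID 19944) lies on chromosome 9 at 106428889 to 106431568 (GRCm38.p6). Its level was 143 and 149 TPM in the WT mice, 3025 in KO 1 and 1989 in KO 2. Both KO libraries were far above both WT libraries, and here KO 1 was the higher, against the order of the core genes. The corresponding expected counts were 1152, 1212, 23553 and 16162. The fold was 15.9 (log2 fold change 3.99, SE 0.23, adjusted p = 0.00201, edgeR), and the call held without each library in turn, with log2 fold changes of 3.71 to 4.21.

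In WT, Rpl29 ranked 78 and 77 among the 84 members by TPM, next to the weakly expressed copies. In KO it ranked 30 and 59, within the range of the core genes. Its log2 fold change was number 49 of all 12680 genes, and number 3 of the 2309 genes whose mean reached 100 CPM. The WT level of 146 TPM (mean) stood far below the 2929 TPM of the median core gene, and the KO mean of 2507 TPM close to it.

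The value of Rpl29 carries a limit of read assignment. Its counts were not whole numbers, so reads had been divided between genes, and 35.5% of the 50-base stretches of its transcripts also occur in 84 other genes. The closest was Uimc1, which holds 26.5% of them. Uimc1 had 44.8, 46.3, 48.4 and 42.6 TPM, and its groups overlapped in TPM but not in CPM, with 59.6 and 64.5 CPM in the WT and 58.4 and 57.0 in the KO mice (log2 fold change -0.10, adjusted p = 0.572, edgeR). Of 9 tested genes within 100 kb of Rpl29, 2 rose, Parp3 (1.40, adjusted p = 0.00683) and Rrp9 (0.94, adjusted p = 0.0280, edgeR). The others ran from -1.27 to 0.43, and the median of the 9 was -0.04.

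Rps27l encodes a close relative of Rps27 in the small subunit and is known as a p53 target. Its gene (ID 67941) lies on chromosome 9 at 66944624 to 66949522. It was at 161, 145, 329 and 379 TPM. Both KO libraries lay above both WT libraries, with KO 2 the highest. The fold was 2.16 (log2 fold change 1.11, SE 0.15, adjusted p = 0.0120, edgeR), and the call held without each library in turn. Its counts were whole numbers, and 11.2% of its 50-base stretches occur in other genes.

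The core gene Rps27 had 976, 2004, 1574 and 2047 TPM. WT 1 was the low library, and the groups overlapped (log2 fold change 0.18, SE 0.37, adjusted p = 0.775, edgeR). Of its 50-base stretches, 25% also occur in Rps27rt, and the sum of both genes was 2913, 4012, 2766 and 4407 TPM, with WT 1 and KO 1 the low libraries. The Rps27l level was 16.5% and 7.25% of that of Rps27 in WT and 20.9% and 18.5% in KO. Both KO ratios lie above both WT ratios, but the gap between the 2 WT mice is larger than that from WT 1 to the KO mice.

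Rpl22l1 encodes the paralog of Rpl22, an RNA-binding large subunit protein needed by developing alpha-beta T cells and known to hold down Rpl22l1. The gene of Rpl22l1 (ID 68028) lies on chromosome 3 at 28805508 to 28807424. It was at 355, 367, 211 and 207 TPM. The 2 libraries of each group were close to each other, and the KO libraries lay below both WT libraries. The log2 fold change was -0.89 (SE 0.11, adjusted p = 0.0108, edgeR). Without WT 2 the adjusted p was 0.0588 and the call was lost.

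Rpl22 itself had 404, 455, 349 and 494 TPM, with the order of the other core genes and overlapping groups (log2 fold change -0.12, adjusted p = 0.754, edgeR). Rpl22l1 was at 87.8% and 80.5% of Rpl22 in WT, at 60.4% in KO 1 and at 41.8% in KO 2. The paralog was thus nearly as abundant as its core gene in WT. The KO mice differed in this ratio while their Rpl22l1 levels were nearly equal.

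Rpl7l1 encodes a relative of Rpl7 that takes part in assembling the large subunit. Its gene (ID 66229) lies on chromosome 17 at 46773907 to 46782656. It was at 73.6, 71.2, 139.7 and 102 TPM. Both KO libraries were higher than both WT libraries, and KO 1 was the highest. The fold was 1.55 (log2 fold change 0.63, SE 0.15, adjusted p = 0.0495, edgeR). The call was lost without WT 1 (adjusted p = 0.259), without WT 2 (0.291) and with limma on log2(TPM + 1) (0.0639). Rpl7 had 3264, 3417, 2750 and 3552 TPM, and Rpl7l1 was at 2.26% and 2.08% of it in WT and at 5.08% and 2.88% in KO.

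**Figure D4:**
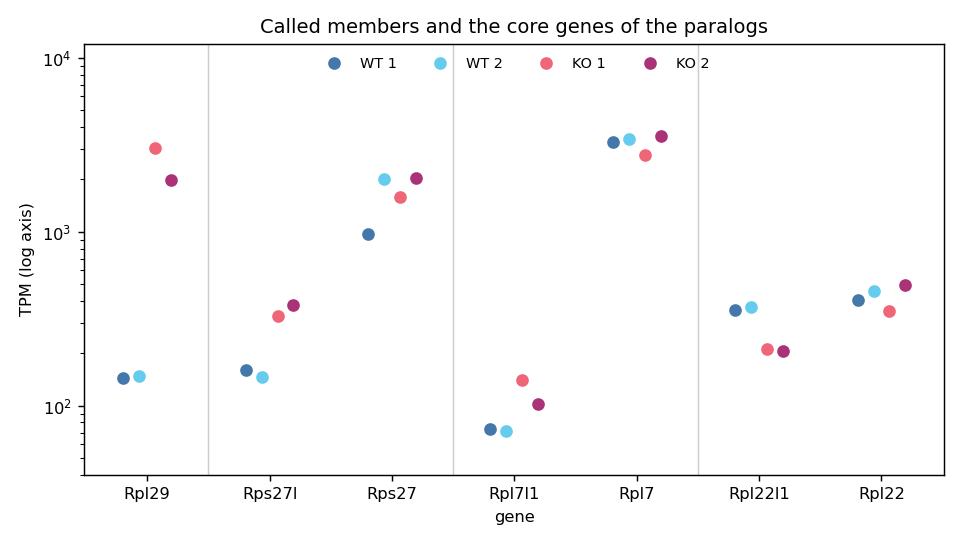
TPM (log axis) of the 4 members that passed the test and of the core genes of the paralogs, 1 point per library. The KO points of Rpl29, Rps27l and Rpl7l1 lie above both WT points and those of Rpl22l1 below, while the groups overlap in Rps27, Rpl7 and Rpl22.

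The other copies were near the floor. Rpl39l, a paralog best known from the testis, had 2.56 and 2.70 TPM in WT, 0.57 in KO 1 and 4.39 in KO 2. Rpl3l, the muscle form of Rpl3, had 0.32, 0.52, 0.53 and 0.73 TPM. Rpl10l, a copy of Rpl10 active in the testis, was at 0.19, 0, 0 and 0.19 TPM, from 2 reads in each of the libraries where it was seen. Rpl32l had 11.1, 7.02, 6.61 and 7.82 TPM (log2 fold change -0.42, adjusted p = 0.484, edgeR). None of the 3 that were tested passed, with adjusted p of 0.530 for Rpl3l and 0.988 for Rpl39l (edgeR).

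The stalk proteins P0, P1 and P2 bind the elongation factors. Rplp0 had 5712, 6018, 5274 and 6236 TPM, Rplp1 had 4661, 5052, 4448 and 5763, and Rplp2 had 2480, 2393, 2105 and 2508. All 3 were lowest in KO 1 and highest in KO 2 on this scale. Their log2 fold changes were -0.12, -0.02 and -0.18 (adjusted p = 0.709, 0.953 and 0.510, edgeR). Rpsa, a small subunit protein also known as a laminin receptor, had 4855, 5490, 3987 and 5496 TPM, and its 2 highest libraries, WT 2 and KO 2, were level (log2 fold change -0.22, adjusted p = 0.587, edgeR).

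Among the core genes with the largest changes, none passed. Rps24 had 3451, 3736, 3904 and 5401 TPM, with KO 2 apart from the other 3 (log2 fold change 0.27, adjusted p = 0.455, edgeR). Its groups do not overlap in TPM and do in CPM. Rpl3, whose protein lies near the peptidyl transferase centre, had 3128, 3335, 2366 and 3076 TPM (-0.34, adjusted p = 0.333, edgeR), with KO 1 apart. Rpl36a (-0.25) and Rpl10a (-0.22) had the next largest negative values among the core genes.

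Levels of the core genes were close to each other but not equal. Their median was 2929 TPM, against 19.9 TPM for the median gene tested, and 64 of 76 lay between 1000 and 5000 TPM. In all, 34 members were among the 50 genes of highest TPM. Rps26 was highest, with 7790, 8417, 7743 and 10646 TPM, followed by Rpl41, Rps2, Rpl23a and Rplp0, the 5 with a mean over 5000. Rps2 was nearly level over the libraries, at 6726, 6828, 6424 and 6601 TPM.

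At the low end, 5 core genes had a mean under 500 TPM: Rps6, Rps15a, Rps20, Rpl22 and Rpl37. Rps6 encodes the protein phosphorylated by the S6 kinases, and had 116, 95.2, 93.0 and 137 TPM. Rps15a had 202, 223, 155 and 245 TPM. None of the 5 had whole counts in every library, whereas 42 of the 76 core genes did. The share of 50-base stretches that also occur in other genes was 43.8% in Rps6, above the core median of 24.2%, but 14.2% in Rpl37, 7.26% in Rps20, 5.20% in Rps15a and 3.47% in Rpl22, below it. The low TPM of Rps15a and Rps20 went with many counts, 11060 and 12067 in WT 1, against 1694 for Rps6. The part of divided reads and of the gene lengths used for TPM in these levels was not tested.

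Genes that act on ribosomal protein messages or on the ribosome were followed as companion lists. Over all genes tested, edgeR called 5.14% higher and 8.23% lower, or 13.4% in either direction. Of the same 12680 genes, DESeq2 called 988 higher and 1308 lower, and limma on log2(TPM + 1) called 620 higher and 784 lower. The counts of the lists are to be read beside the values of the same method. They also depended on the KO mouse kept. For the fits without a KO library, the shares of all genes called are those given above. Of 25 other TOP messages, 0 passed in either direction with edgeR, and 1, Hnrnpa1, had an unadjusted p under 0.05 (log2 fold change -0.54, adjusted p = 0.0893). DESeq2 called 1 lower and limma 0. Their median was -0.07 (0.02 with library size alone), and it was -0.29 in KO 1 and 0.04 in KO 2 against the WT mean. Eef1a1, the elongation factor that brings tRNA to the ribosome, had 15936, 16808, 9282 and 14535 CPM (-0.46, adjusted p = 0.309, edgeR). Without KO 2, 12 of the 25 were called lower and 1 higher, and without KO 1, 1 in each direction.

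Of 26 regulators of TOP translation, 0 passed with edgeR and 5 had an unadjusted p under 0.05, with a median log2 fold change of 0.08. DESeq2 called 1 higher and 1 lower, and limma 0. Without KO 2, 8 were called higher and 4 lower, and without KO 1, 2 higher and 1 lower. The 4 of smallest p were Tsc1 (0.38, adjusted p = 0.0995), Eif4ebp1 (-0.72, 0.122), Larp1b (0.36, 0.127) and Rps6ka1 (-0.34, 0.144) (edgeR). Eif4ebp1 encodes the translation repressor 4E-BP1, a target of mTORC1, and Tsc1 an inhibitor of mTORC1.

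Of 24 chaperones and importers of ribosomal proteins, Ipo9, an import receptor, rose (93.4, 81.8, 145 and 125 CPM, log2 fold change 0.63, adjusted p = 0.0401, edgeR). Aamp was at 145, 152.7, 95.0 and 98.3 CPM and fell (-0.62, adjusted p = 0.0237, edgeR), and Nap1l4, a histone chaperone, fell as well (-0.49, adjusted p = 0.0450, edgeR). The median of the list was 0.28, but against the WT mean it was 0.42 in KO 1 and -0.09 in KO 2. Leaving out either WT library left 0 called with edgeR (6 without WT 1 and 5 without WT 2 had an unadjusted p under 0.05). Without KO 2 the list had 13 calls higher and 4 lower, and without KO 1 it had 6 and 5. On all 4 libraries DESeq2 called 6 higher and 2 lower, and limma on log2(TPM + 1) 0 higher and only Aamp lower, with 11 at an unadjusted p under 0.05 and adjusted p of 0.0540 for Ipo9 and 0.109 for Nap1l4. Nap1l4 was also lost with library size alone (adjusted p = 0.0704, edgeR).

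Of 31 translation factors, Eef1e1 rose (0.56, adjusted p = 0.0489) and Eef2k fell (-0.81, adjusted p = 0.0199, edgeR). Eef2k encodes the kinase that slows elongation by phosphorylating eEF2, and Eef1e1 a part of the aminoacyl-tRNA synthetase complex. Both calls were lost without either WT library (edgeR, with 2 factors at an unadjusted p under 0.05 in each of those fits), and both with limma on log2(TPM + 1), where the adjusted p was 0.0554 for Eef1e1 and 0.0682 for Eef2k. Eef1e1 was also lost with no filter on low counts (adjusted p = 0.0505, edgeR). Without KO 2, 17 factors were called higher and 4 lower, and without KO 1, 2 and 7.

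Of 21 genes of ribosome rescue and quality control, 3 fell and 0 rose with edgeR and with DESeq2, and 4 had an unadjusted p under 0.05 with edgeR. With limma 2 fell, and Map3k20 was lost (adjusted p = 0.0929). Ankzf1, which releases stalled peptide chains, was at 63.3, 63.9, 25.5 and 34.2 CPM (-1.09, adjusted p = 0.0180). Tcf25, a part of the ribosome quality control complex, was at 541, 581, 313 and 316 CPM (-0.83, adjusted p = 0.0171). Map3k20, the kinase that responds to collided ribosomes, fell by 0.81 on the log2 scale (adjusted p = 0.0248, edgeR). Each of the 3 was lower in both KO libraries than in both WT libraries, and without either WT library 1 call was left. Without KO 1, 1 gene was called higher and 5 lower, and without KO 2, 7 higher and 4 lower.

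**Figure D5:**
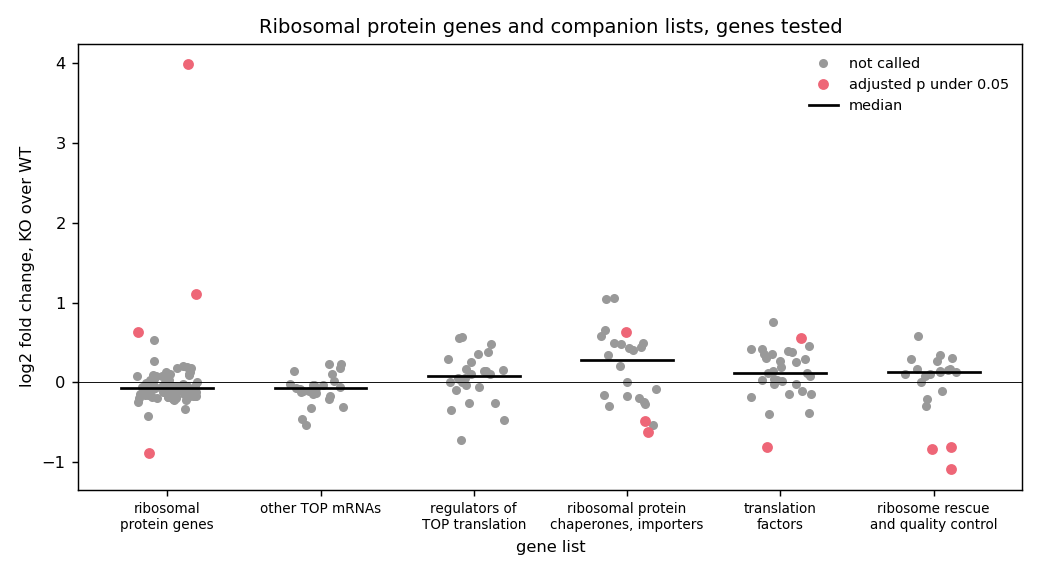
Log2 fold change in KO over WT (y axis) of every tested gene among the ribosomal protein genes and the 5 companion lists (x axis), with the genes that passed marked. With TMM scaling, medians are -0.07 for the ribosomal protein genes, -0.07 for other TOP messages and 0.08 for regulators. They are 0.28 for chaperones and importers, 0.12 for translation factors and 0.13 for rescue and quality control. Against the WT mean, the median of chaperones and importers is 0.42 in KO 1 and -0.09 in KO 2.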

How the data were processed

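RNA sequencing of 4 libraries was compared, 2 PRAK KO and 2 WT, 1 per mouse. The deposited table gives for each gene an expected count, FPKM and TPM. Expected counts are the authors' estimates and are not normalised, per the file headers, and the authors' FPKM and TPM are corrected for gene length and library size. RSEM 1.2.12, HISAT2 2.0.4, Bowtie2 2.2.5 and the build GRCm38.p6 are listed in the submitters' processing notes. For strand, read length and annotation the answer is not given in the sources, so reads of antisense and overlapping genes cannot be told apart, and of the counts 69.4% were whole numbers.

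Counts were rounded and filtered with filterByExpr (minimum 10, total 15), which left 12680 genes. edgeR 4.0.16 in R 4.3.3 gave the quasi-likelihood test with robust estimation and TMM scaling, and p-values were adjusted by Benjamini-Hochberg over all 12680, with a threshold of 0.05. Residual degrees of freedom were 2, with a prior of 3.58. A member's level is TPM, its change is edgeR's log2 fold change, and "overlap" is judged on CPM unless stated. Alternatives used DESeq2 1.42.0, limma 3.58.1, other scalings and filters, the replicate number, and each library left out. On simulated data over 12499 genes, edgeR recovered 64 of 100 genes changed 2-fold and 89 of 98 changed 4-fold, with 3 false calls. The simulated libraries varied alike in both groups and independently from gene to gene. The KO libraries here split in most members, so these rates need not hold for them. Libraries of a group were no duplicates, since the chi-square per member was 114 in WT and 1370 in KO.

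Coordinates and windows are from RefSeq (GRCm38.p6), and 50-base stretches from GENCODE transcripts. Members and lists were chosen with earlier results of these data known. Named genes are Mapkapk5, called members, paralogs with their core genes, stalk genes and Rpsa, the 6 highest and 6 lowest members by TPM, the 5 largest changes in each direction, and the 4 of smallest p in each list. Other genes were named after their values were seen, and 2 genes are not reported here by name, though they stay in all counts over the members and lists.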

Additional observations from a re-analysis of the deposited data

How the results depend on the processing

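With 2 mice per genotype, and KO mice that differed from each other in most members, the sign of many named core genes depended on the library kept, while Rpl3, Rps2, Rplp2 and Rpl10a kept theirs with each library left out. Rpl29, Rps27l and Rpl22l1 passed under all 7 alternatives that keep the 4 libraries, and Rpl7l1 under all but limma. The number of genes called was 1695 in the reported fit, 2935 with the replicate block, and 693 to 5999 with 1 library left out. Under the same replicate block 3 members were higher and 1 lower, as without it. The deviations of same-numbered libraries had a correlation of 0.23 across genes, and whether equal numbers share a litter or day is not said in the labels, so the fit without the block is the one reported. With 1 library left out, 2 to 18 members were called higher and 0 to 51 lower, and the difference in TPM share ran from -2.42 to 3.91 points.

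Of 48 named genes, 17 changed sign under some setting, and none of the 17 was called in the reported fit. With library size alone the log2 fold change was 0.075 for Rpl39l, 0.027 for Rps4x, 0.079 for Rpl10, 0.077 for Rplp1 and 0.031 for Rpl23a. With limma on log2(TPM + 1) it was 0.0057 for Rps4x, 0.074 for Rpl10, 0.061 for Rplp1 and 0.017 for Rpl23a. Both settings move the median of all genes, from 0.02 to 0.12 and 0.09. With 1 library left out the ranges were -2.02 to 0.79 for Rpl39l, -0.38 to 0.18 for Rps4x, -0.58 to 0.012 for Rpl36a, -0.45 to 0.15 for Rpl22, -0.27 to 0.82 for Rps27, -0.43 to 0.035 for Rpl7, -0.68 to 0.20 for Rpl39, -0.19 to 0.13 for Rpl10 and -0.31 to 0.035 for Rplp0. They were -0.28 to 0.19 for Rplp1, -0.53 to 0.033 for Rpsa, -0.22 to 0.34 for Rps26, -0.19 to 0.34 for Rpl41, -0.31 to 0.14 for Rpl23a, -0.34 to 0.32 for Rps6, -0.61 to 0.15 for Rps15a and -0.036 to 0.52 for Rps24. The cause was not tested. Counts were lowest for the weakly expressed copies, such as Rpl10l with at most 2 reads in each library, and what depth limits in other members was not tested.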
